A study of Mus musculus with 6 samples.

Results

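The Polycomb group proteins act in a pair of large complexes, PRC1 and PRC2, and the transcripts of their subunits were measured in heads of E8.5 mouse embryos that lack the histone demethylase Jarid1b. A list of 36 subunit genes was used, and each gene was taken from probe sets of the array that the platform annotation pairs with that gene symbol and no other. This gave 35 measured genes among the 19938 genes covered by the 21789 probe sets tested. The missing one is Cbx6, which shares its only probe set with Npcd and Nptxr. The 35 genes comprise 6 PRC2 core subunits, 5 PRC2 accessory subunits, the 2 RING proteins shared by all forms of PRC1, 10 subunits of canonical PRC1 and 12 of variant PRC1. For 4 of them (Eed, Rbbp7, Phc3 and Rybp) more than 1 probe set was available, and the one with the highest average intensity across the 6 arrays was used.

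Jarid1b knockouts (3 pools) were compared with Jarid1b heterozygotes (3 pools), both of the C57BL/6 strain at E8.5, with 4 heads in each pool. The allele lacks an exon of Jarid1b after recombination by Cmv-cre, which is active throughout the embryo, and knockouts came from crosses between heterozygotes. The heterozygotes therefore carry 1 recombined allele themselves, and no wild-type heads were on these arrays. Affymetrix mouse Gene 1.0 ST arrays were used, and the deposited RMA intensities, with medians of 58.1 to 62.9 per array, were put on the log2 scale.

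PRC2 places methyl groups on lysine 27 of histone H3 (H3K27me3) through Ezh2 or Ezh1, and PRC1 places ubiquitin on histone H2A through Ring1 or Rnf2. Canonical PRC1 reads H3K27me3 through its Cbx proteins and compacts chromatin, whereas variant PRC1 holds Rybp or Yaf2 in their place. Both complexes keep developmental genes such as the Hox clusters silent, and their targets in embryonic stem cells often carry H3K4me3, the mark that Jarid1b removes, as well. Jarid1b is known to bind many Polycomb target genes, and the study found skeletal transformations of the Polycomb type in knockouts. Whether the transcripts of the Polycomb machinery itself differ between the genotypes is the question addressed here.

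The array lists Jarid1b as Kdm5b. It had log2 intensities of 7.63, 7.47 and 7.71 in the knockout pools, against 9.17, 9.12 and 9.16 in the heterozygote pools. Its log2 fold change was -1.55, and it was the only probe set to pass an adjusted p of 0.05 in limma (adjusted p = 6.30e-04), which is 0.00459% of those tested. The position of its probes relative to the deleted exon is not known. The heads expressed neural ectoderm markers (12 of 12 measured), with summed linear intensities of 4752 to 4871 in knockout pools and 4801 to 5137 in heterozygote pools. At an unadjusted p under 0.05 in limma, 1 of these was higher in knockouts (Sox1) and 3 were lower (Hesx1, Rax and Six3). The shares over all probe sets were 5.97% higher and 4.66% lower. Heart markers (10 of 10) summed to 13980 to 14530 in knockouts and 13840 to 14950 in heterozygotes. Neural tissue was thus not the only source of RNA. At the same unadjusted threshold 3 heart markers were lower in knockouts (Hand2, Gata4 and Tbx5) and 0 were higher. Endothelium markers (8 of 8) summed to 1375 to 1696 and 1522 to 1617, with 1 lower (Etv2) and 0 higher. The pools differed in their makeup. Visceral endoderm markers (10 of 10 measured) summed to 3807 in knockout pool 3, against 7323 to 8656 in the other pools. Blood markers (7 of 8) summed to 1854 in knockout pool 2, against 281.4 to 533.5 elsewhere. At the unadjusted threshold 1 blood marker was higher in knockouts (Klf1) and 0 were lower. Xist gave 13.34 in knockout pool 2 and 452.7 and 480.3 in the other knockout pools, against 18.59 in heterozygote pool 2 and 1150 and 1082 in the other heterozygote pools. Y-linked genes (3 of 4) summed to 573, 757.9 and 559.2 in knockout pools, against 233.9, 764.3 and 217.6 in heterozygote pools. The sex of the embryos is not given in the sample labels used here, and its balance differed between the genotypes. The sums of surface ectoderm markers (8 of 8) did not overlap, at 6646 to 7368 in knockouts and 7811 to 7979 in heterozygotes. Of the single markers, Cdh1, Krt18 and Esrp1 had every knockout pool below every heterozygote pool, beside 9.03% of all probe sets. These 3 were also lower at the unadjusted threshold, and 0 markers of this list were higher. Epcam, Krt8, Tfap2c, Grhl2 and Cldn6 overlapped. The part of these differences in the results below was not tested beyond a fit with Y-linked genes as a covariate. In bulk tissue, fewer cells of a type and less RNA per cell cannot be told apart.

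None of the 35 Polycomb subunits differed between knockout and heterozygote heads at an adjusted p of 0.05 (limma, Benjamini-Hochberg over all 21789 probe sets). At an unadjusted p under 0.05, 0 subunits were higher in knockouts, beside 5.97% of all probe sets, and 2 were lower (5.71% of the 35), beside 4.66% of all probe sets. These were the variant PRC1 subunits Rybp and Pcgf3. The log2 fold changes of the 35 genes ran from -0.19 to 0.08, with a median of -0.02, beside -0.0007 over all probe sets. There were 12 positive and 23 negative values.

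The arrays bounded these differences closely. The 95% confidence interval of the fold change lay wholly within 1.2-fold in either direction for 30 of the 35 genes (85.7%), beside 56.1% of all probe sets. The exceptions were Phf1 in PRC2, Scml2 in canonical PRC1, and Rybp, Pcgf3 and Pcgf1 in variant PRC1. With a limit of 1.5-fold the count was 35 of 35, beside 98.2% of all probe sets. The subunits also varied little between pools of 1 genotype, with a median within-group SD of 0.06 log2 units, beside 0.09 over all probe sets. When the probe sets were split by mean intensity into 3 classes of 7263, 23 subunits fell in the brightest class, 11 in the middle and 1 in the dimmest. In the brightest class the median SD was 0.06 for the subunits and 0.06 for all probe sets, and in the middle class it was 0.07 for the subunits and 0.10 for all probe sets.

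**Figure D1:**
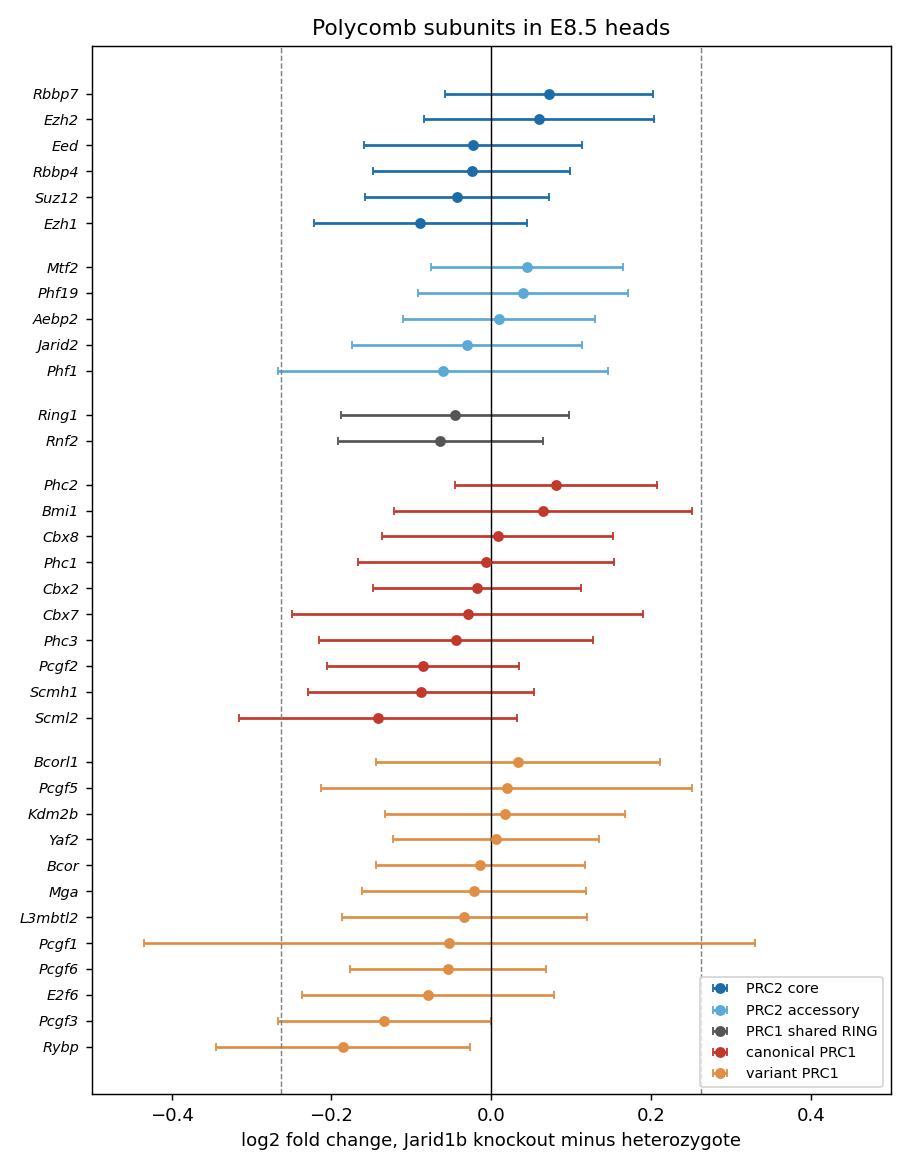
Each point is the log2 fold change of 1 Polycomb subunit, Jarid1b knockout minus heterozygote (n = 3 pools each), and each bar is its 95% confidence interval from limma. Rows are ordered within the 5 subunit groups, the solid line marks no difference and the dashed lines mark 1.2-fold. The intervals of 30 of the 35 genes stay between the dashed lines, and those of Rybp and Pcgf3 lie below 0.

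The enzymatic and structural core of PRC2 differed little between the genotypes, and its paralogs pointed in different directions. Ezh2, the main H3K27 methyltransferase of proliferating cells, had log2 intensities of 10.37, 10.54 and 10.50 in knockout pools, against 10.44, 10.41 and 10.38 in heterozygote pools. Knockout pool 1 lay below every heterozygote pool and the others above, so the groups overlapped, and the log2 fold change was 0.06 (SE 0.06, 95% interval -0.08 to 0.20). Ezh1, the paralog with weaker methyltransferase activity, gave 6.92, 6.88 and 6.78 in knockouts, against 6.93, 6.96 and 6.96 in heterozygotes. Every knockout pool lay below every heterozygote pool, although knockout pool 1 missed the lowest heterozygote pool by very little, and the log2 fold change was -0.09 (SE 0.06, limma, adjusted p = 0.604).

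Suz12, the scaffold on which PRC2 assembles, is another subunit without overlap. It had log2 intensities of 9.95, 9.99 and 9.99 in knockouts, against 10.03, 10.02 and 10.01 in heterozygotes. The pools of each genotype were tightly grouped, and the difference between the genotypes was small, with a log2 fold change of -0.04 (SE 0.05, 95% interval -0.16 to 0.07). Eed, which binds H3K27me3 and stimulates the enzyme, gave 8.82, 8.87 and 8.93 in knockouts, against 8.88, 8.96 and 8.85 in heterozygotes, a log2 fold change of -0.02 (SE 0.06). A second, dim probe set of Eed gave 0.24 with an SE of 0.16, so that its 95% interval of -0.14 to 0.62 includes the value of the first.

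Rbbp4 and Rbbp7 are histone-binding proteins that serve PRC2 and several other chromatin complexes. Rbbp4 had log2 intensities of 10.20, 10.11 and 10.18 in knockouts, against 10.16, 10.20 and 10.19 in heterozygotes, and Rbbp7 had 11.26, 11.39 and 11.34 in knockouts, against 11.28, 11.24 and 11.25 in heterozygotes. Both pairs of groups overlapped. The log2 fold changes were -0.02 (SE 0.05) for Rbbp4 and 0.07 (SE 0.06) for Rbbp7, whose second probe set gave 0.05. Rbbp7 lies on the X chromosome, and its value was 0.08 with the Y-linked genes as a covariate.

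The RefSeq promoters of the subunits (build GRCm38.p6, 250 bases before to 50 after the start of transcription) were examined because CpG-rich promoters are where H3K4me3 is mostly found. The 2 shown are those of the 6 core promoters that hold a match to the E2F-type motif. It was searched as TTTCCCGC, TTTCGCGC, TTTGCCGC and TTTGGCGC on both strands and is printed in capitals. A match is a description of the sequence and not a binding site.
Ezh2 promoter, chr6:47594981-47595280, minus strand: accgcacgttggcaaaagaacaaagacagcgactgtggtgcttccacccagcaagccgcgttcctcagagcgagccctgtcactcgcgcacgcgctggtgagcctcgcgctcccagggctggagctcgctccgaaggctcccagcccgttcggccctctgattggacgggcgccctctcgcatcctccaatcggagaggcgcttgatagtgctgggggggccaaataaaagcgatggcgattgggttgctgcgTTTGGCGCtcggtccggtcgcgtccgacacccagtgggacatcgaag
Suz12 promoter, chr11:79992856-79993155, plus strand: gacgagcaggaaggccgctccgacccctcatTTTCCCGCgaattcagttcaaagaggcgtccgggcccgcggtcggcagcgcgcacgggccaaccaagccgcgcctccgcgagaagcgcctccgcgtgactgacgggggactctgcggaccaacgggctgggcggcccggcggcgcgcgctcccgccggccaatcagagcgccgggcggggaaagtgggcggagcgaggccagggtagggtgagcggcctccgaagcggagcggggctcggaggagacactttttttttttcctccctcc
The Ezh2 promoter has 31 CpG dinucleotides and the Suz12 promoter 41. Of the measured subunits, 31 matched a RefSeq entry, with 44 promoters in all and a median of 23 CpG dinucleotides, beside 15 in the 19177 promoters of tested genes. At least 20 CpG dinucleotides were found in 68.2% of the subunit promoters and in 38.6% of those of tested genes. The E2F-type motif was in 3 of the 44 (6.82%), those of Ezh2, Suz12 and Phf19, beside 2.99% of the promoters of tested genes. The motif itself holds a CpG, and the promoters compared were not matched for CpG content. The log2 fold changes of these 3 genes were 0.06, -0.04 and 0.04, on both sides of 0.

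The accessory subunits of PRC2 guide the core complex to chromatin and define its alternative forms. Mtf2, Phf19 and Phf1 are Polycomb-like proteins of the form called PRC2.1, and Jarid2 and Aebp2 belong to the form called PRC2.2. Mtf2 had log2 intensities of 10.37, 10.36 and 10.35 in knockouts, against 10.36, 10.28 and 10.31 in heterozygotes. Heterozygote pool 1 lay within the range of the knockouts, and the log2 fold change was 0.05 (SE 0.05). Phf19 gave 5.68, 5.68 and 5.60 in knockouts, against 5.56, 5.66 and 5.63 in heterozygotes, and a log2 fold change of 0.04 (SE 0.06). Phf1 gave 6.16, 6.26 and 6.20 in knockouts, against 6.17, 6.47 and 6.16 in heterozygotes. Heterozygote pool 2 stood above the other 5 pools for Phf1, and the log2 fold change was -0.06 (SE 0.09), or 0.04 without that pool. With the Y-linked covariate it was -0.21 (limma, unadjusted p = 0.0175, adjusted p = 0.569).

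Jarid2 is related to Jarid1b by its JmjC domain but lacks demethylase activity. It had log2 intensities of 9.55, 9.40 and 9.44 in knockouts, against 9.47, 9.55 and 9.46 in heterozygotes. The highest pools of the genotypes were level and the groups overlapped, with a log2 fold change of -0.03 (SE 0.06, 95% interval -0.17 to 0.11). Aebp2, a zinc finger protein, ranged from 7.77 to 7.85 in knockouts and from 7.79 to 7.83 in heterozygotes. None of the 5 accessory genes had groups without overlap. Over all probe sets, 9.03% had every knockout pool below every heterozygote pool and 8.03% had every knockout pool above. The median log2 fold change of the accessory genes was 0.01, with 3 positive and 2 negative values. The core had a median of -0.02, with 2 positive and 4 negative values.

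Ring1 and Rnf2, also called RING1A and RING1B, are the ubiquitin ligases of PRC1. Rnf2 had log2 intensities of 9.37, 9.49 and 9.45 in knockouts, against 9.50, 9.47 and 9.53 in heterozygotes. Only knockout pool 2 reached the range of the heterozygotes, and the log2 fold change was -0.06 (SE 0.06, 95% interval -0.19 to 0.06). Ring1 gave 7.39, 7.39 and 7.43 in knockouts, against 7.55, 7.38 and 7.43 in heterozygotes. Heterozygote pool 1 alone stood higher, and the log2 fold change of Ring1 was -0.05 (SE 0.06).

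In canonical PRC1 the subunit with the largest difference in either direction was Scml2, a protein with MBT repeats encoded on the X chromosome and the only subunit in the dimmest class of probe sets. Its log2 intensities were 5.21, 5.17 and 5.01 in knockouts, against 5.17, 5.31 and 5.34 in heterozygotes. The groups overlapped through heterozygote pool 1, and the log2 fold change was -0.14 (SE 0.08, limma, adjusted p = 0.540). With the Y-linked covariate it was -0.17. The median over all probe sets in the dimmest class was 0.06. Scmh1, its relative, gave 7.81, 7.89 and 7.83 in knockouts, against 7.92, 8.02 and 7.85 in heterozygotes, and a log2 fold change of -0.09 (SE 0.06).

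Bmi1 (Pcgf4) and Pcgf2 (Mel18) are the alternative PCGF proteins that pair with the RING proteins in canonical PRC1. Pcgf2 had log2 intensities of 9.61, 9.55 and 9.57 in knockouts, against 9.63, 9.67 and 9.70 in heterozygotes. Every knockout pool lay below every heterozygote pool, with a log2 fold change of -0.09 (SE 0.05, limma, adjusted p = 0.588). Bmi1 gave 8.49, 8.45 and 8.64 in knockouts, against 8.40, 8.60 and 8.40 in heterozygotes. Its groups overlapped, and its log2 fold change of 0.07 (SE 0.08) had the other sign.

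The Cbx proteins carry the chromodomain that binds H3K27me3. Cbx2 had log2 intensities of 9.72, 9.67 and 9.64 in knockouts, against 9.64, 9.75 and 9.70 in heterozygotes, and Cbx8 had 6.43, 6.40 and 6.30 in knockouts, against 6.29, 6.40 and 6.40 in heterozygotes. The groups overlapped for both, with log2 fold changes of -0.02 (SE 0.06) for Cbx2 and 0.01 (SE 0.06) for Cbx8. Cbx7 varied more, with 6.80, 6.57 and 6.43 in knockouts, against 6.62, 6.69 and 6.57 in heterozygotes, where the knockout pools enclosed the heterozygote range. Its log2 fold change was -0.03 (SE 0.09).

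The Phc proteins link PRC1 particles through their SAM domains. Phc2 was the only subunit with every knockout pool above every heterozygote pool, at 7.67, 7.67 and 7.69 in knockouts, against 7.55, 7.66 and 7.58 in heterozygotes. Heterozygote pool 2 missed the lowest knockout pool by very little. Its log2 fold change was 0.08 (SE 0.05, limma, adjusted p = 0.616). Phc1 gave 9.78, 9.64 and 9.60 in knockouts, against 9.61, 9.76 and 9.68 in heterozygotes, a log2 fold change of -0.01 (SE 0.07). Phc3 gave 7.21, 6.94 and 7.08 in knockouts, against 7.13, 7.11 and 7.11 in heterozygotes. The knockout pools of Phc3 lay on both sides of the narrow heterozygote range, and its probe sets disagreed in sign, at -0.04 (SE 0.07) and 0.12 (SE 0.08).

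The lowest log2 fold change of all the subunits was that of Rybp in variant PRC1. Rybp, which binds DNA and the RING proteins and takes the place of Cbx in these complexes, had log2 intensities of 9.47, 9.35 and 9.48 in knockouts, against 9.51, 9.69 and 9.65 in heterozygotes. Every knockout pool lay below every heterozygote pool, and heterozygote pool 1 stood nearest to the knockouts. The means were 9.43 ± 0.07 in knockouts and 9.62 ± 0.09 in heterozygotes (SD, n = 3 pools each), which puts the knockout level at 0.880 of the heterozygote level. The log2 fold change was -0.19 (SE 0.07, 95% interval -0.34 to -0.03), and it did not pass after adjustment (limma, unadjusted p = 0.0281, adjusted p = 0.424).

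A second probe set of Rybp gave 8.39, 8.46 and 8.42 in knockouts, against 8.49, 8.68 and 8.502 in heterozygotes. These groups did not overlap either, and the log2 fold change was -0.14 (SE 0.07, limma, adjusted p = 0.515). The probe sets come from the same RNA and are not independent samples. Yaf2, the paralog that can replace Rybp, gave 8.89, 8.92 and 8.89 in knockouts, against 8.87, 8.85 and 8.97 in heterozygotes. Its groups overlapped and its log2 fold change was 0.01 (SE 0.06, 95% interval -0.12 to 0.14).

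Pcgf3 and Pcgf5 are the alternative PCGF proteins of the variant complex that contains Auts2 and Fbrs. Pcgf3 had log2 intensities of 8.96, 9.04 and 8.91 in knockouts, against 9.07, 9.13 and 9.11 in heterozygotes. The groups did not overlap, with means of 8.97 ± 0.07 in knockouts and 9.10 ± 0.03 in heterozygotes (SD, n = 3 pools each). The log2 fold change was -0.13 (SE 0.06), at the edge of the unadjusted threshold and far from the adjusted one (limma, unadjusted p = 0.0499, adjusted p = 0.470). Pcgf5 gave 7.50, 7.57 and 7.18 in knockouts, against 7.43, 7.40 and 7.36 in heterozygotes. Knockout pool 3 was the lowest and the other knockout pools the highest of the 6, with a log2 fold change of 0.02 (SE 0.10).
The Pcgf3 promoter is shown as that of the gene at the edge of the threshold, has 23 CpG dinucleotides, the median of the subunits, and holds no match to the E2F-type motif.
Pcgf3 promoter, chr5:108461009-108461308, plus strand: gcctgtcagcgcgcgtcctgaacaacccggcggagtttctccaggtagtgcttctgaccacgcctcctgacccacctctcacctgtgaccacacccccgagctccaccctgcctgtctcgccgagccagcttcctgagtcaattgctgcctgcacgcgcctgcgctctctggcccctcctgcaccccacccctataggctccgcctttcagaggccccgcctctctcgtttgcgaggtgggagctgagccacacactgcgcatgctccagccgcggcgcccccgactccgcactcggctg

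**Figure D2:**
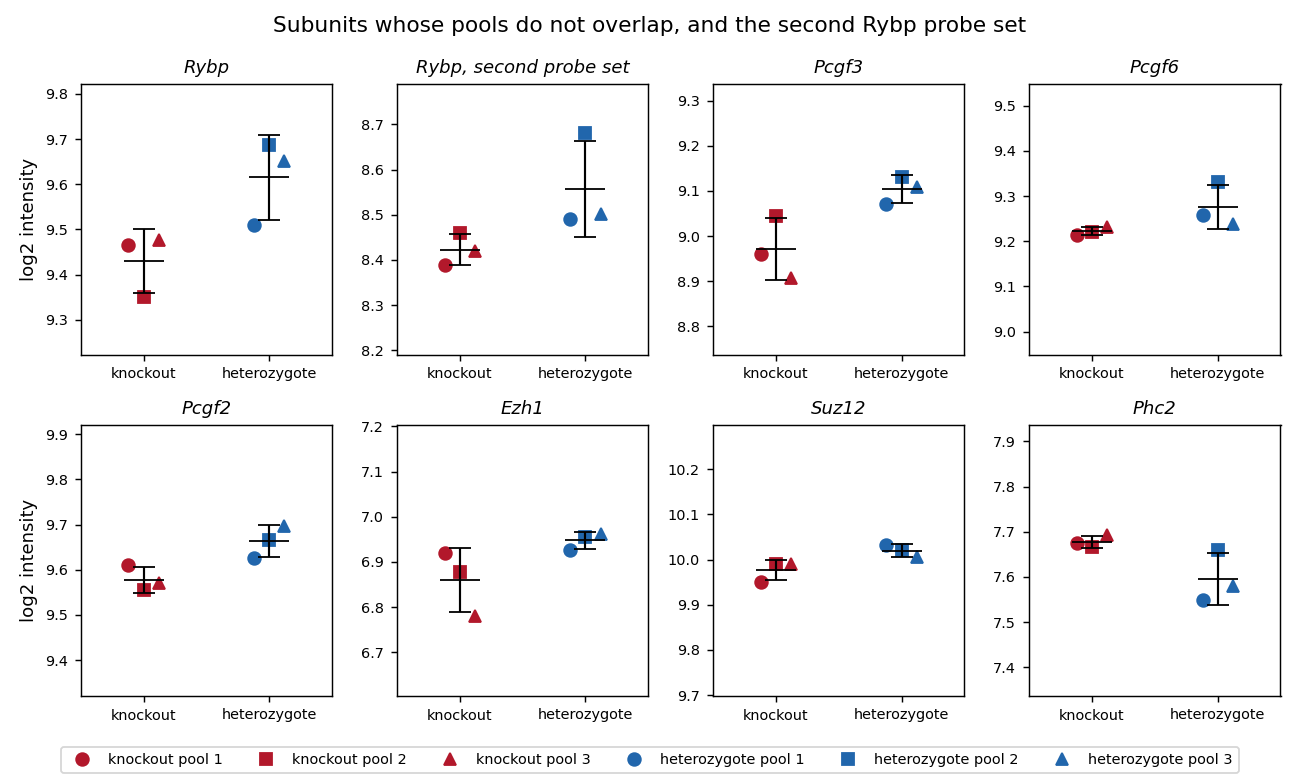
Log2 intensity of each pool of 4 heads (symbols), with the mean and SD of the 3 pools per genotype (bars), for the 7 subunits whose knockout and heterozygote pools do not overlap and for the second Rybp probe set. Each panel spans the same length of log2 scale around its own mean. The knockout pools lie below the heterozygote pools in all panels but Phc2, with the widest separation of means for Rybp.

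The variant complex of Pcgf1 holds Bcor or Bcorl1, both X-linked, and Kdm2b, which binds unmethylated CpG dinucleotides. Bcor had log2 intensities of 7.59, 7.64 and 7.59 in knockouts, against 7.59, 7.69 and 7.57 in heterozygotes, and Bcorl1 had 7.85, 7.79 and 7.68 in knockouts, against 7.61, 7.80 and 7.80 in heterozygotes. The groups overlapped for both, and the log2 fold changes were -0.01 (SE 0.06) and 0.03 (SE 0.08). With the Y-linked covariate they were -0.07 for Bcor and -0.01 for Bcorl1. Pcgf1 itself gave 6.76, 6.71 and 6.91 in knockouts, against 6.43, 7.03 and 7.09 in heterozygotes. The heterozygote pools enclosed the knockouts, so that its log2 fold change of -0.05 has the widest interval of all the subunits, from -0.43 to 0.33. It was -0.26 without heterozygote pool 1 (limma, unadjusted p = 0.0139, adjusted p = 0.520), 0.04 without heterozygote pool 2 and 0.07 without heterozygote pool 3. Kdm2b had a log2 fold change of 0.02 (SE 0.06).

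The complex of Pcgf6 holds the repressors E2f6 and Mga, which recognize DNA, and the MBT protein L3mbtl2. Pcgf6 had log2 intensities of 9.21, 9.22 and 9.23 in knockouts, against 9.26, 9.33 and 9.24 in heterozygotes. The groups did not overlap, by a narrow margin at heterozygote pool 3, and the log2 fold change was -0.05 (SE 0.05). E2f6 had a log2 fold change of -0.08 (SE 0.07), L3mbtl2 of -0.03 (SE 0.07) and Mga of -0.02 (SE 0.06), all with overlapping groups. In variant PRC1 as a whole, 4 values were positive and 8 negative, with a median of -0.03. Canonical PRC1 had 3 positive and 7 negative values and a median of -0.02.

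Across the 35 subunits, the knockout pools lay wholly below the heterozygote pools for 6 genes, 17.1% of them, beside 9.03% of all probe sets. These were Ezh1, Suz12, Pcgf2, Pcgf3, Pcgf6 and Rybp. They lay wholly above for 1 gene, Phc2, which is 2.86%, beside 8.03% of all probe sets. These backgrounds differ with intensity. Among the 7263 brightest probe sets 16.8% had every knockout pool below every heterozygote pool, and 5 of the 23 subunits among them did (21.7%). In the middle class the shares were 9.09% of 11 subunits and 8.22% of all probe sets. Every knockout pool lay above every heterozygote pool for 0 of the 23 brightest subunits, beside 3.06% of the brightest probe sets. In the middle class this held for 1 of 11 subunits (9.09%), beside 8.99% of its probe sets. Of the 23 subunits in the brightest class 8 were positive, beside 29.8% of its probe sets, and the median log2 fold change there was -0.02 for the subunits and -0.04 for all probe sets. In the middle class 4 of 11 subunits were positive, beside 49.8% of its probe sets, with medians of -0.03 for the subunits and -0.0004 for all probe sets. Scml2, alone in the dimmest class, was negative, beside 69.6% positive probe sets. By sign and median the subunits did not lie lower than the background in the brightest class, and they did in the middle class. By separate groups, the share that lay below exceeded the background in the brightest class and was near it in the middle class. These gaps rest on few genes and were not tested. The smallest p that an exact permutation test of 3 against 3 pools can give is 0.1, so single genes with separate groups cannot pass such a test.

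Some pools stood high or low in most subunit groups. Heterozygote pool 2 lay above 0 in the median of 4 of the 5 groups. Knockout pool 2, knockout pool 3 and heterozygote pool 1 each lay below 0 in 4 of 5. In the brightest class of all probe sets, heterozygote pool 2 was the highest and knockout pool 3 the lowest. The median deviation of that class was 0.03 and -0.03 in them, so their pattern is not particular to the subunits. The class gave -0.007 in knockout pool 2, also below 0. In heterozygote pool 1 it gave 0.007, whereas most subunit groups lay below 0 there. The median deviation from the mean of all 6 pools was -0.02, -0.01 and -0.03 for variant PRC1 in knockout pools, against -0.01, 0.06 and 0.06 in heterozygote pools. Heterozygote pool 1 lay among the knockouts. For the PRC2 core the values were -0.04, -0.01 and 0.03 in knockouts, against -0.004, 0.03 and -0.01 in heterozygotes, and the groups overlapped. Canonical PRC1 gave 0.04, -0.03 and -0.05 in knockouts, against -0.04, 0.07 and 0.007 in heterozygotes, which overlapped as well. The difference between the genotypes in these medians was -0.01 for the PRC2 core, 0.009 for the PRC2 accessory subunits, -0.05 for the RING proteins, -0.03 for canonical PRC1 and -0.06 for variant PRC1, beside -0.03 for the brightest class of all probe sets.

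**Figure D3:**
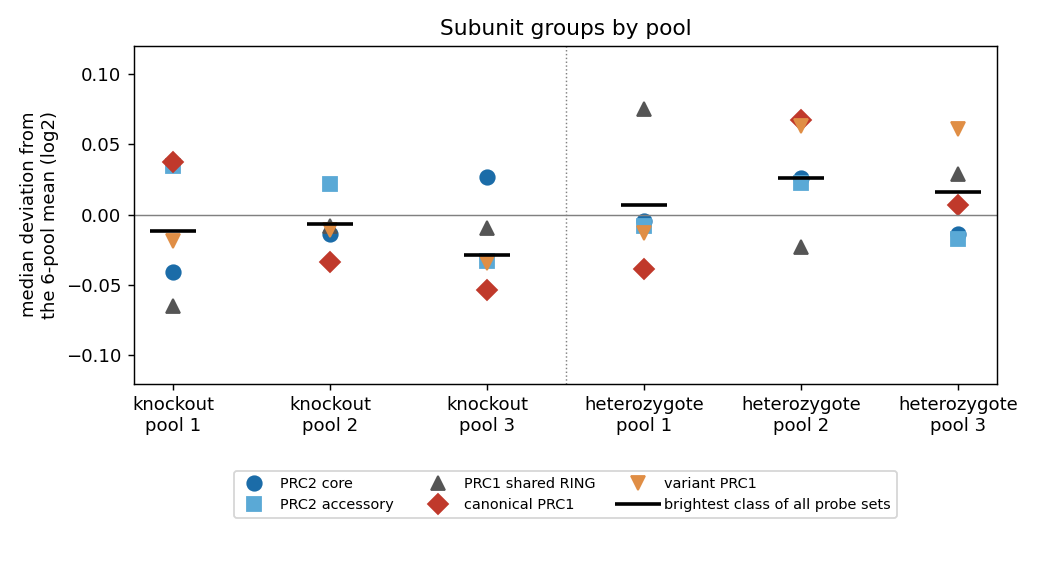
Median deviation of each subunit group from its mean over the 6 pools (log2 units), by pool, with knockout pools left of the dotted line, heterozygote pools right of it, and the median of the brightest class of all probe sets as a black bar. Variant PRC1 reaches 0.06 in heterozygote pools 2 and 3 and -0.01 in heterozygote pool 1, beside -0.03 to -0.01 in knockout pools.

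The pools themselves differed in how often they were extreme. Knockout pool 1 held the highest value for 9 subunits and the lowest for another 9, and heterozygote pool 2 held the highest for 9 and the lowest for 4. Heterozygote pool 3 was the highest for 8 subunits and the lowest for 1. Heterozygote pool 2 thus held many of the highest values, and without it 17 of the 35 log2 fold changes were positive.

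Proteins that act with or against the Polycomb complexes were examined next. A list of 37 such genes was made, of which 35 were measured and Mbd5 and Csnk2b were not analysed here. None passed an adjusted p of 0.05 in limma. Before adjustment 0 genes were higher, beside 5.97% of all probe sets, and 0 were lower, beside 4.66%, with the same threshold. There were 18 positive and 17 negative log2 fold changes, with a median of 0.002. Every knockout pool lay below every heterozygote pool for 2 genes (5.71%, beside 9.03% of all probe sets). It lay above for 1 gene (2.86%, beside 8.03%), the MBT protein Sfmbt1, with a log2 fold change of 0.07 (SE 0.06).

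Mbd6, a partner of the PR-DUB complex that removes ubiquitin from H2A, had log2 intensities of 8.13, 8.03 and 7.87 in knockouts, against 8.21, 8.14 and 8.17 in heterozygotes. It had the lowest log2 fold change of this list, -0.16 (SE 0.08), and the groups did not overlap. Wdr5, a WD40 protein shared by variant PRC1 and the H3K4 methyltransferases, gave 9.18, 9.16 and 9.15 in knockouts, against 9.20, 9.39 and 9.35 in heterozygotes. The groups were separate by little at heterozygote pool 1, with a log2 fold change of -0.15 (SE 0.06). Kdm6a, an X-linked demethylase that removes the mark of PRC2, gave 8.19, 8.08 and 8.32 in knockouts, against 8.39, 8.26 and 8.32 in heterozygotes. Its groups overlapped, and its lowest value in each genotype was that of pool 2, where Xist was also lowest. The log2 fold changes were -0.13 (SE 0.07) for Kdm6a and -0.03 (SE 0.06) for its relative Kdm6b. The part of embryo sex in the value of Kdm6a was not examined.

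The other extremes of this list were small. Ogt, the sugar transferase of PR-DUB, had a log2 fold change of 0.07 (SE 0.07) and the histone deacetylase Hdac2 one of 0.10 (SE 0.06). Among further PRC2 partners, Lcorl had -0.14 (SE 0.08) and Epop 0.02 (SE 0.05). Mbtd1, the lowest of the MBT and PhoRC proteins, had 0.01 (SE 0.06). The 95% interval stayed within 1.2-fold for 29 of these 35 genes and within 1.5-fold for all 35.

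The values of Rybp and Pcgf3 depended on the way the arrays were scaled and on single pools. The log2 fold change of Rybp was negative under all 16 alternatives, from -0.24 to -0.14, and its unadjusted p was under 0.05 in 10 of them. It exceeded 0.05 with quantile or cyclic loess normalization, with the replicate block, and without knockout pool 2, heterozygote pool 2 or heterozygote pool 3. Pcgf3 was also negative under all 16, from -0.17 to -0.10, and its unadjusted p was under 0.05 in 4. The lowest adjusted p of any subunit under any alternative was 0.313, for Rybp.

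**Figure D4:**
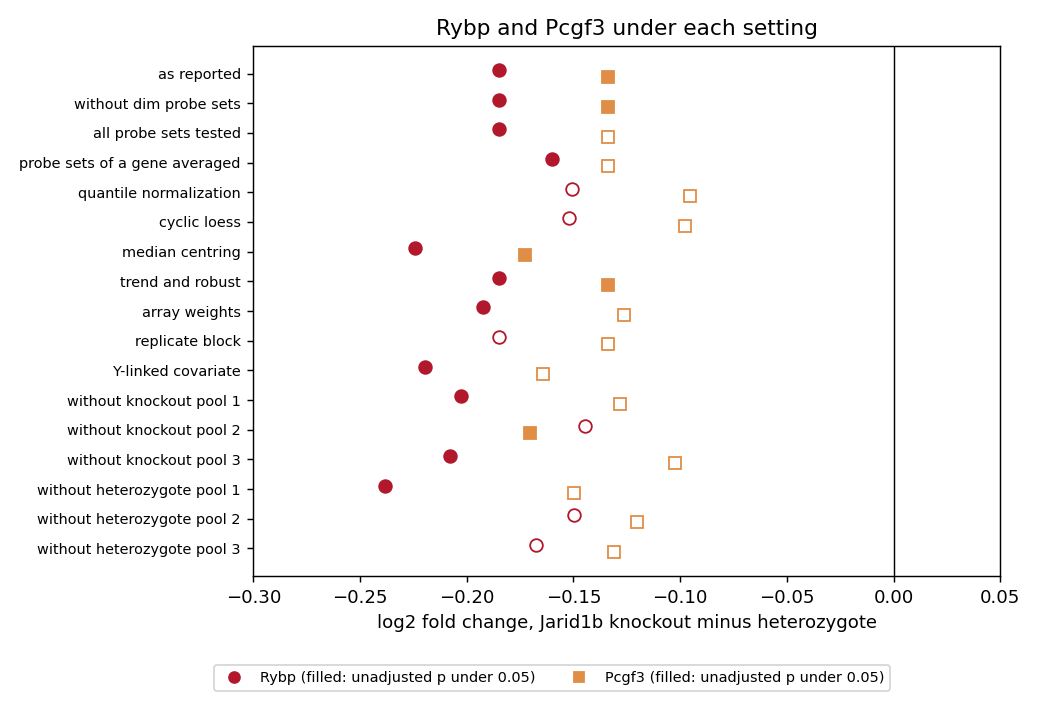
Log2 fold change of Rybp (circles) and Pcgf3 (squares), Jarid1b knockout minus heterozygote, as reported and under each of 16 alternatives. Filled symbols have an unadjusted p under 0.05. All values are negative, between -0.24 and -0.10, and none passes after adjustment.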

How the data were processed

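Total RNA from pooled heads was labelled and read on 6 Affymetrix mouse Gene 1.0 ST arrays. The authors ran RMA, with Affymetrix Power Tools, to obtain the deposited intensity values (tool version not given in the sources used here). RMA corrects background, equalizes the distributions of the arrays and summarizes probes, which can compress small differences. The deposited intensity values, from 2.53 to 11741, are linear, and log2 was taken. Of 35556 probe sets, the 21789 that the platform annotation pairs with a single symbol were tested. Symbols were updated through RefSeq for 21698. Knockout and heterozygote pools were fitted without covariates in limma 3.58.1 (lmFit, then eBayes) under R 4.3.3, with Benjamini-Hochberg adjustment, after a check on simulated data. The median SE was 0.071, and the number of arrays limits the precision. Genotypes and replicate numbers come from the labels. P-values reflect only how these pools vary.

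The subunits, lists and tests were chosen with earlier results of these data known. Values in every pool are given by rule for subunits at an unadjusted p under 0.05 and the 2 highest and 2 lowest of each group. They are also given for catalytic and core genes and paralogs. For the extremes of each part of the wider list, log2 fold changes are given by rule. Pools of Mbd6, Wdr5 and Kdm6a, and those of Pcgf1 and Pcgf6, were given after their values were seen.

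The alternatives left out dim probe sets (mean log2 under 5.33), tested all probe sets, averaged those of a gene, rescaled the arrays, changed the variance model or array weights, added the replicate block or the mean of 3 Y-linked genes, and left out each pool.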

Additional observations from a re-analysis of the deposited data

How the results depend on the processing

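No subunit passed an adjusted p of 0.05 under any of the 16 alternatives, none was higher at an unadjusted p under 0.05, and the count of intervals within 1.2-fold, 30 as reported, lay between 24 and 32. The count of subunits lower at an unadjusted p under 0.05, 2 as reported, was 1 with all probe sets tested, with probe sets of a gene averaged, with cyclic loess and with array weights, and 0 with quantile normalization. With cyclic loess the gene was Scml2, and with the Y-linked covariate the 2 genes were Rybp and Phf1. The labels do not say whether same-numbered pools belong together, and the correlations of their deviations were 0.000759, 0.106 and -0.0132. With the replicate block the count of lower subunits was 0. Leaving out 1 pool gave 0 to 3, with 1 without each knockout pool, 3 without heterozygote pool 1 (Rybp, Scml2 and Pcgf1), and 0 without heterozygote pool 2 or pool 3. The median log2 fold change of all subunits was -0.0026 with quantile normalization, 0.0006 with cyclic loess and -0.0635 with median centring, and -0.0364 to -0.0008 when 1 pool was left out, the value without heterozygote pool 2 being -0.0008. The PRC2 core gave 0.0177 with averaged probe sets, 0.0081 with quantile normalization, 0.0091 with cyclic loess and -0.0626 with median centring. The accessory subunits gave -0.029 with median centring. Variant PRC1 gave 0.0056 with cyclic loess and -0.0666 with median centring. The cause was not tested. Median centring moved the median of all probe sets by -0.04 and its unadjusted calls to 640 higher and 1485 lower, beside 1301 higher and 1016 lower as reported, and the subunits to 6 positive and 29 negative values. Cyclic loess gave 838 higher and 995 lower, and 18 positive and 17 negative subunits. Of the 559 subunit values under the alternatives, 65 changed sign, none over 0.11 in size, and 14 of 35 genes kept their sign in all. The directions of values this small are therefore not settled. Scml2 has no value without dim probe sets. Jarid1b passed in every setting.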
